A study of Mus musculus with 12 samples.

Results

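The genes of 5 signal transducers, *Stat3*, *Stat4*, *Stat5a*, *Stat5b* and *Stat6*, were followed in an assay of open chromatin across the 3 effector subsets of mouse thymic invariant natural killer T (iNKT) cells, with and without the zinc finger protein Hivep3. A region of the deposited accessibility table belonged to a gene when it overlapped the gene body or lay within 10 kb of either end, and 54 of the 63309 regions did so. The windows of *Stat4*, *Stat6*, *Stat5b*, *Stat5a* and *Stat3* held 14, 9, 21, 10 and 9 regions, and 9 regions on chromosome 11 lay in the windows of 2 genes. Each such region was counted once, for the gene whose body it overlapped or lay nearest to, which left *Stat5b* with 20 regions, *Stat5a* with 2 and *Stat3* with 9. The assay was Omni ATAC-seq, in which the Tn5 transposase inserts sequencing adapters into open DNA.

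The 12 libraries came from 6 groups of 2. C57BL/6 and Hivep3-/- mice were both of C57BL/6 background and untreated, and were 8 to 9 weeks old. The Hivep3-/- allele had been backcrossed to C57BL/6 and was not limited to iNKT cells. From pooled thymi of each genotype, iNKT1 cells were sorted as CD122+ ICOS-, iNKT2 cells as CD122- ICOS+ Izumo1r+ CD138- and iNKT17 cells as CD122- ICOS+ Izumo1r- CD138+. The subsets were put together for the transposition and separated again by ICOS and CD138 before the libraries were made. The labels number the replicates as mice 1 and 2 although thymi were pooled, so p-values measure the spread between these libraries only. With 2 libraries against 2, an exact permutation test of a single value cannot go below p = 0.333, and the tests given are from limma, fitted across all regions or genes.

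STAT proteins wait in the cytoplasm until a cytokine receptor and its Janus kinases phosphorylate them, and then pair and bind DNA at the genes they regulate. STAT4 is activated by IL-12 and drives *Ifng*, the signature cytokine of iNKT1 cells. STAT6 carries the signal of IL-4, the cytokine of iNKT2 cells. STAT5A and STAT5B act downstream of IL-2, IL-7 and IL-15, cytokines that keep T and NKT cells alive, and STAT3 acts downstream of IL-6, IL-21 and IL-23 in cells that make IL-17.

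In the GRCm38.p6 (mm10) annotation *Stat4* (ENSMUSG00000062939.11) occupies chr1:51987148-52107189 on the plus strand, 120.0 kb, and *Stat6* (ENSMUSG00000002147.18) occupies chr10:127642986-127660957 on the plus strand, 18.0 kb. The other 3 genes are neighbours: *Stat5b* (ENSMUSG00000020919.11, minus strand) at chr11:100780731-100850724, *Stat5a* (ENSMUSG00000004043.14, plus strand) at chr11:100859351-100885169 and *Stat3* (ENSMUSG00000004040.16, minus strand) at chr11:100885098-100939540. *Stat5a* and *Stat3* overlap tail to tail by 72 bp, and 8626 bp separate *Stat5b* from *Stat5a*. Of the 54 regions, 26 lay in introns, 21 within 1000 bp of an annotated start of these or neighbouring genes, 4 in exons and 3 between genes. Distances below are from a gene's outermost 5′ start along its own direction, so that a negative distance is upstream. Each region is 500 bp long.

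The sequences of 7 regions are shown first, those called between genotypes or for a difference between genotype changes and, at each gene, the one with the largest called difference between C57BL/6 subsets, as the central 300 bases on the plus strand of GRCm38.p6. Capitals mark matches on either strand to the motifs searched.
Stat4 intron at 47.9 kb, chr1:52034918-52035217: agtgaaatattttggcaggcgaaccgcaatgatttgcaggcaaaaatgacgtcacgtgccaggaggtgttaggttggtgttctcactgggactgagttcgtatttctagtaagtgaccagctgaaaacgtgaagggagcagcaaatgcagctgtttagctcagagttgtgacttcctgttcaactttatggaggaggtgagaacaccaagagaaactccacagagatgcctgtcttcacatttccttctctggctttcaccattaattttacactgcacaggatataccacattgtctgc
Stat4 intron at 48.4 kb, chr1:52035420-52035719: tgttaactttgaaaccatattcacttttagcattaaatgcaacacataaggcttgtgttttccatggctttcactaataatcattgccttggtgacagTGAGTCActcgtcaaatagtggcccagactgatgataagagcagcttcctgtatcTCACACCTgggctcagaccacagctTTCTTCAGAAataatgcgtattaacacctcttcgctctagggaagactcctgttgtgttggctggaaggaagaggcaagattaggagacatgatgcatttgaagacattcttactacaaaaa
Stat6 exon at 12.4 kb, chr10:127655235-127655534: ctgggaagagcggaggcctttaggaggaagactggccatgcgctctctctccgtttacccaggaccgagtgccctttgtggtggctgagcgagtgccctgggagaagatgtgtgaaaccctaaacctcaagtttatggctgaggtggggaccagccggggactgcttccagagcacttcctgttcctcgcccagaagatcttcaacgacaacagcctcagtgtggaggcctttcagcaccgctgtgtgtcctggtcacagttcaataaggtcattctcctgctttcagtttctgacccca
Stat5b upstream at −3.87 kb, chr11:100854445-100854744: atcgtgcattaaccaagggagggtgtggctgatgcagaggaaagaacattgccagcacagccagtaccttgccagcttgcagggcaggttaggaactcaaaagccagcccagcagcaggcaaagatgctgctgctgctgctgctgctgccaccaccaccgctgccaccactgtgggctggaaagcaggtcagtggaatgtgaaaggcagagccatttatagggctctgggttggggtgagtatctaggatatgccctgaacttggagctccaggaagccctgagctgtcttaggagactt
Stat5a gene body at 2.76 kb, chr11:100861964-100862263: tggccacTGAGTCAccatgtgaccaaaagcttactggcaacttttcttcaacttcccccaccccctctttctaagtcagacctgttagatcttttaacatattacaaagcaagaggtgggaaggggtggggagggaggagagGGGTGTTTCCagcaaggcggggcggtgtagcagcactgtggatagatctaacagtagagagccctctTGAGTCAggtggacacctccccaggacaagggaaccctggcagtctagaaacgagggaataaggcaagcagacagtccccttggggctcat
Stat3 intron at 50.5 kb, chr11:100888906-100889205: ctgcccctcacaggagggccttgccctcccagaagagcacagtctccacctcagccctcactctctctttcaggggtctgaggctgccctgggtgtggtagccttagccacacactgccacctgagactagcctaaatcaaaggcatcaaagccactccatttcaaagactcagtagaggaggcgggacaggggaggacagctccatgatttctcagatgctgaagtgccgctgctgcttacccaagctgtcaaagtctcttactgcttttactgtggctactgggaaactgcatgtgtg
Stat3 intron at 47.7 kb, chr11:100891726-100892025: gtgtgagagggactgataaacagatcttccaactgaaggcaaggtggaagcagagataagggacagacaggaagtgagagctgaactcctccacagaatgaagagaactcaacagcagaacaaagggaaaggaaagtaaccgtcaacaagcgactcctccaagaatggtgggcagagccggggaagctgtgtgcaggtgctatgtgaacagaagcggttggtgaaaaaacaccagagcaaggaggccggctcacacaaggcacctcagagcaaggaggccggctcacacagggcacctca
The motifs were TTCNNNGAA (STAT), the STAT6 motif with a wider spacer, AGGTGTGA (T-box), AACCACA (Runt), the NF-kB motif, TAGGTCA (ROR) and TGANTCA (bZIP), and no match of one overlapped another in these 7 sequences. The *Stat4* sequence at 48.4 kb held 1 bZIP match, 1 T-box match and 1 STAT6 match. The *Stat5a* sequence held 2 bZIP matches and 1 NF-kB match, and the other 5 sequences held no match. Over the central 300 bases of all 54 regions, 2 held the STAT motif (3.7%, against 7.95% of all 63309 regions) and 9 the STAT6 motif (16.7%, against 6.62%). The T-box motif was held by 2 (3.7%, against 2.08%), the Runt motif by 7 (13%, against 13.7%) and the NF-kB motif by 5 (9.26%, against 2.79%). None held the ROR motif (against 3.75%) and 6 held the bZIP motif (11.1%, against 11.5%). These are matches of letters and not sites.

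Levels are the deposited log2 values, insertions per kb after normalization across libraries, which makes the linear sums of the libraries nearly equal. Read depth is therefore unknown, and the number of distinct values up to the median, which grows with depth, ran from 73 to 491. It was 139 and 170 in C57BL/6 and 227 and 491 in Hivep3-/- iNKT1 libraries, 219 and 159 in C57BL/6 and 91 and 118 in Hivep3-/- iNKT2 libraries, and 142 and 134 in C57BL/6 and 85 and 73 in Hivep3-/- iNKT17 libraries, so it was higher in Hivep3-/- mice in iNKT1 and lower in the other subsets. In both genotypes 4 of 5 iNKT1 markers (all but *Il2rb*), 5 of 6 iNKT2 markers (all but *Gata3*) and 6 of 6 iNKT17 markers had their summed level higher in every library of their own subset than in every other library of that genotype. Regions of markers of other cells were present for 2 of 4 double-positive thymocyte genes (summed log2 level 8.12 to 8.44), 2 of 3 B cell genes (5.43 to 6.30) and 2 of 3 myeloid genes (6.40 to 7.36), and their part in the results was not tested. The B cell sum was 5.43 to 5.44 in C57BL/6 and 5.93 to 6.07 in Hivep3-/- iNKT1 cells, and the myeloid sum was 7.24 to 7.36 in iNKT1 and 6.40 to 6.46 in iNKT17 cells. None of the 21 regions at *Hivep3* was called between genotypes, although its locus sum was higher in Hivep3-/- mice in iNKT1 cells (0.27, adjusted p = 0.0123 in limma) and on the average of the subsets (0.10, adjusted p = 0.0622 in limma). Since the deleted part of the allele is not given in the sources used here, accessibility is no check of the genotype labels. A level is a mean over the cells of a library, so fewer cells with an open region and less opening per cell cannot be told apart.

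The mean level of the 54 regions ran from −0.37 to 7.92. Over the 12 libraries, 17 regions stayed within 1 log2 unit, 26 spanned 1 to 3 units and 11 spanned more than 3, of which 6 lay at *Stat4*, 2 at *Stat5b*, 2 at *Stat3* and 1 at *Stat6*. The median span was 2.61 at *Stat4*, 2.20 at *Stat3*, 1.84 at *Stat5b*, 1.44 at *Stat5a* and 0.49 at *Stat6*. Only 3 of the 9 regions counted for *Stat6* lay in its body. Those at 19.3 to 25.88 kb lay at the neighbouring genes *Nab2* and *Nemp1* and spanned 0.285 to 0.492, and the others spanned 0.505 to 3.417. The promoter regions of *Stat3* at 0.04 kb, *Stat5a* at 1.09 kb and *Stat6* at its start spanned 0.407, 0.437 and 0.712. Other regions near starts spanned more, 1.532 at *Stat6* at 0.71 kb, 1.783 at the *Stat5b* promoter and 2.486 at the internal *Stat4* promoter. Of the 54 regions, 42 overlapped the body of one of the 5 genes, so most spans were measured inside genes.

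**Figure D1:**
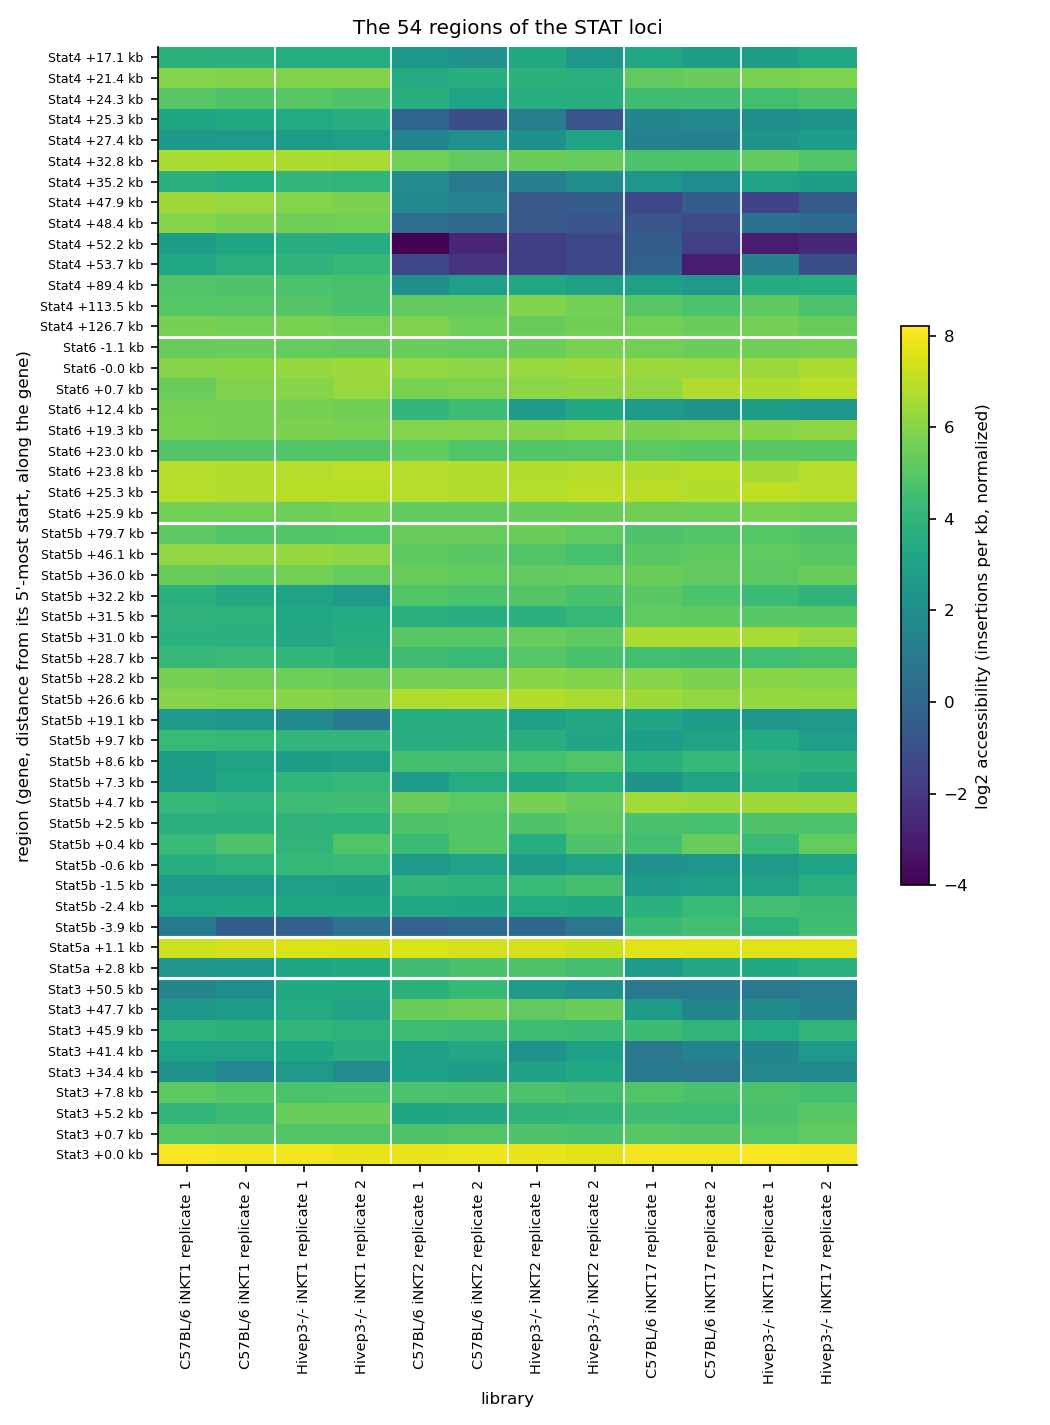
Heat map of the 54 regions (rows, by gene and distance in kb from its outermost 5′ start) in the 12 libraries (columns, by subset and genotype), with colour for the log2 level in insertions per kb. *Stat4* rows at 47.9 to 53.7 kb are bright in the 4 iNKT1 libraries and dark in the other 8, the *Stat5b* row at −3.87 kb is bright in the 4 iNKT17 libraries alone, and the *Stat5a* and *Stat3* promoter rows (7.22 to 7.66 and 7.65 to 8.06) are bright throughout.

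The subsets of C57BL/6 mice were compared to find where these loci differ between effector fates. A region was called when its change was at least 3-fold (1.58 on the log2 scale) with an adjusted p under 0.1 (limma, Benjamini-Hochberg over all regions tested), and it was tested when the mean in a compared group reached 5 insertions per kb. Between iNKT1 and iNKT2 cells, 12 of 53 regions tested were called, against 16% of all regions tested. Of these, 8 were higher in iNKT1 (background 7.33%), all at *Stat4*, and 4 were higher in iNKT2 (background 8.71%), at *Stat5b*, *Stat5a* and *Stat3*. Between iNKT1 and iNKT17 cells, 12 of 52 were called (background 20.5%), 9 of them higher in iNKT1 (background 9.72%), at *Stat4*, *Stat6* and *Stat3*, and 3 higher in iNKT17 (background 10.8%), at *Stat5b*. Between iNKT2 and iNKT17 cells, 9 of 47 were called (background 16.2%), 6 higher in iNKT2 (background 7.72%), at *Stat3*, *Stat5a* and *Stat6*, and 3 higher in iNKT17 (background 8.49%), at *Stat5b* and *Stat4*. Taking both directions together, the share called was near the background in each comparison. By direction, the calls higher in iNKT1 exceeded their background share in both comparisons, through regions that were mostly of a single gene, *Stat4*. Those higher in iNKT2 than in iNKT17 also exceeded theirs (6 of 47 against 7.72%), with 4 of the 6 at *Stat3*. Those higher in iNKT17 than in iNKT1 were below theirs. The median change over the tested regions was near 0 in each comparison, −0.02 between iNKT1 and iNKT2 against 0.01 over all regions tested. The 3 comparisons share libraries. In the same order, the libraries of the compared subsets did not overlap at 40 of 53, 42 of 52 and 35 of 47 regions tested. Over all regions tested these shares were 74.8%, 75.8% and 72.8%, so a lack of overlap between subsets was common. In Hivep3-/- mice the shares over all regions tested were 77%, 74.5% and 69.2%. Shares for separation over both genotypes together are not given.

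In Hivep3-/- mice 13 of 53 regions were called between iNKT1 and iNKT2 cells (background 17.3%), 11 of 53 between iNKT1 and iNKT17 cells (background 19.3%) and 3 of 49 between iNKT2 and iNKT17 cells (background 15.6%). The called regions lay at *Stat4*, *Stat6*, *Stat5b* and *Stat3*, with *Stat4* holding 7 of the 13 and 4 of the 11.

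*Stat4*, the transducer of IL-12, was most open in iNKT1 cells, and the difference was concentrated in introns in the middle of the gene. At 47.9 kb (chr1:52034818-52035317) the 2 C57BL/6 iNKT1 libraries gave log2 levels of 6.46 and 6.30 and the 2 Hivep3-/- iNKT1 libraries 5.95 and 5.80. The level was 1.81 and 1.39 in C57BL/6 iNKT2 cells, −0.61 and −0.41 in Hivep3-/- iNKT2 cells, −1.38 and −0.41 in C57BL/6 iNKT17 cells and −1.52 and −0.55 in Hivep3-/- iNKT17 cells. The iNKT1 libraries did not overlap with the others, and C57BL/6 iNKT2 cells lay between them and the rest. In C57BL/6 cells iNKT1 exceeded iNKT2 by 4.78 and iNKT17 by 7.27 (SE 0.39, adjusted p = 8.39e-09 in limma), the largest difference between iNKT1 and iNKT17 cells at these loci.

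The next region, at 48.4 kb (chr1:52035320-52035819), whose sequence holds the bZIP, T-box and STAT6 letters, followed the same division. It gave 5.97 and 5.81 in C57BL/6 and 5.56 and 5.62 in Hivep3-/- iNKT1 cells. In iNKT2 cells it gave 0.41 and 0.17 in C57BL/6 and −0.61 and −0.78 in Hivep3-/-, and in iNKT17 cells −0.78 and −1.15 in C57BL/6 and 0.57 and 0.19 in Hivep3-/-. The differences in C57BL/6 were 5.61 against iNKT2 and 6.86 against iNKT17. At 52.2 kb (chr1:52039138-52039637) the iNKT1 libraries gave 2.79 and 3.16 in C57BL/6 and 3.59 and 3.57 in Hivep3-/-, and no other library exceeded −0.41. This region had the largest difference between C57BL/6 iNKT1 and iNKT2 cells (6.34, SE 0.70, adjusted p = 7.8e-06 in limma), although the iNKT2 libraries were at −4.05 and −2.69, close to the lowest values of the table. With a pseudocount of 1 on the linear scale this difference was 3.00, and with 5 it was 1.33, under 3-fold. In both Hivep3-/- iNKT17 libraries it stood at the lowest value of the library.

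The *Stat4* regions near starts behaved differently. No region of the table lay at the outermost start, and the nearest, in the intron at 17.1 kb (chr1:52004038-52004537), gave 3.83 and 3.81 in C57BL/6 iNKT1 cells and 2.19 to 3.54 in all others. At the internal promoter at 21.4 kb (chr1:52008345-52008844) C57BL/6 cells gave 5.96 and 5.89 in iNKT1, 3.47 and 3.65 in iNKT2 and 5.28 and 5.41 in iNKT17. Hivep3-/- cells gave 5.90 and 5.91, 3.83 and 3.76, and 5.77 and 5.86 in the same order. Here iNKT17 cells were close to iNKT1 cells and iNKT2 cells were low, so that iNKT17 exceeded iNKT2 by 1.78 (SE 0.12, adjusted p = 9.68e-08 in limma) and iNKT1 exceeded iNKT2 by 2.37 (adjusted p = 1.94e-08 in limma). The most open *Stat4* region, in the intron at 32.8 kb (chr1:52019649-52020148), gave 6.61 to 6.70 in the iNKT1 libraries, 5.29 to 5.62 in iNKT2 and 4.78 to 5.29 in iNKT17 cells. The 3 subsets thus had different orders at different *Stat4* regions. At the 3′ end, the exonic region at 113.6 kb ran from 4.70 to 5.89 and the region beyond the gene at 126.7 kb from 5.37 to 5.85, and neither was called between subsets of C57BL/6 mice.

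**Figure D2:**
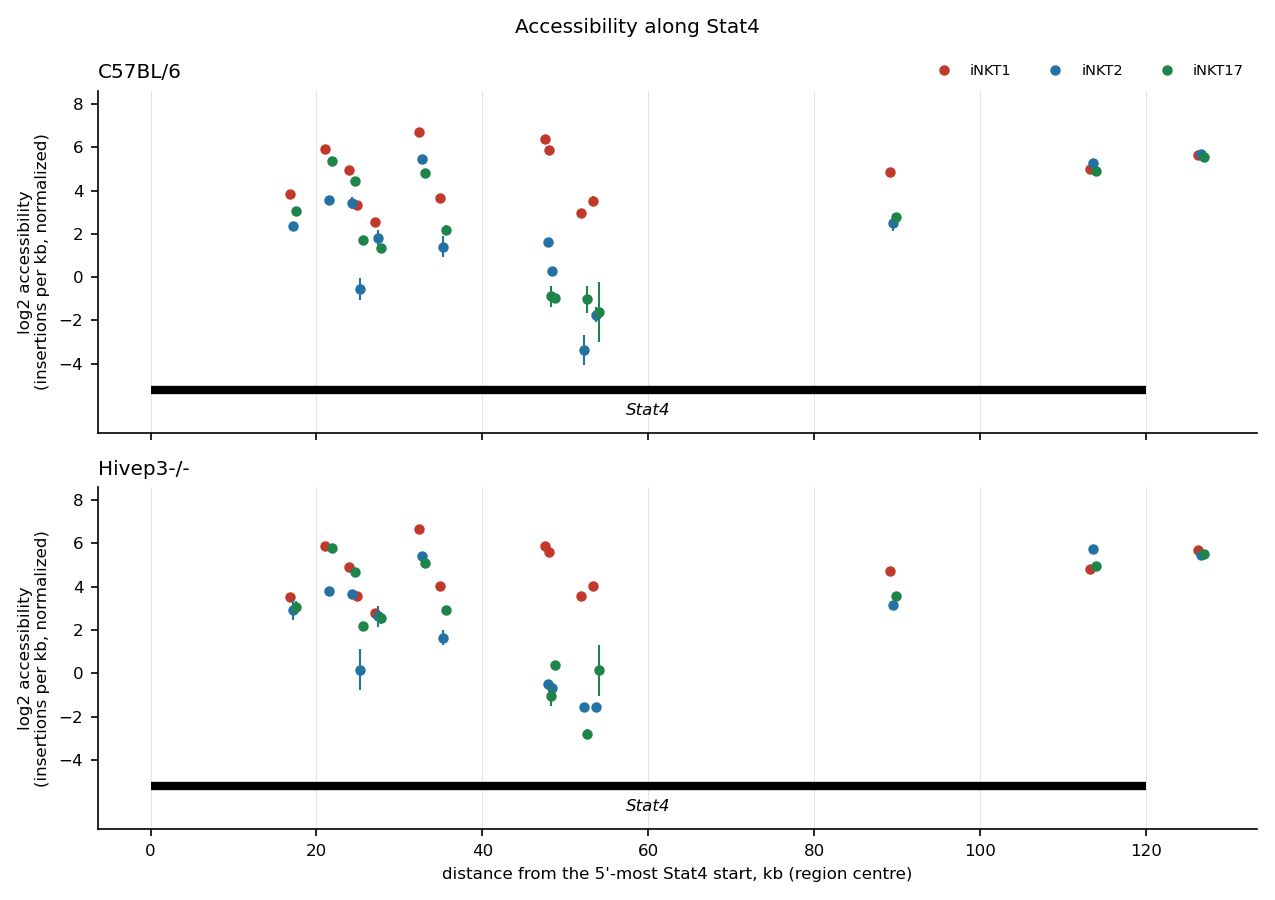
Log2 level (vertical axis) of the 14 *Stat4* regions against the distance of each from the outermost 5′ start in kb (horizontal axis), for iNKT1, iNKT2 and iNKT17 cells in C57BL/6 (one panel) and Hivep3-/- mice (other panel), where points are means of 2 libraries and vertical lines join the libraries. The iNKT1 points stand far above the others at 47.9 to 53.7 kb in both panels, while at 113.6 and 126.7 kb the points of the 3 subsets lie close together.

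*Stat6*, the transducer of IL-4, had a promoter open in all subsets and a single region that was called between C57BL/6 subsets. At the start (chr10:127642730-127643229) the libraries ran from 5.92 to 6.63, and at 0.71 kb (chr10:127643445-127643944) from 5.42 to 6.95. At the latter the iNKT17 libraries lay above those of the other subsets within each genotype, and C57BL/6 iNKT1 differed from iNKT17 cells by −0.85 (SE 0.18, adjusted p = 0.00117 in limma), under 3-fold. The most open region of the window, at 25.3 kb (chr10:127668062-127668561), belongs to the shared promoter of *Nab2* and *Nemp1* and ran only from 6.73 to 7.02. The region at 12.4 kb (chr10:127655135-127655634), which covers the coding exon printed above, gave 5.71 and 5.71 in C57BL/6 and 5.71 and 5.58 in Hivep3-/- iNKT1 cells. It gave 4.08 and 4.40 in C57BL/6 and 2.72 and 3.43 in Hivep3-/- iNKT2 cells, and 2.65 and 2.30 in C57BL/6 and 2.84 and 2.39 in Hivep3-/- iNKT17 cells. The subset order in C57BL/6 was iNKT1, iNKT2, iNKT17 with no overlap between groups, which was common for any 2 subsets over all regions tested. The drop from iNKT1 to iNKT17 was 3.24 (SE 0.24, adjusted p = 1.22e-07 in limma) and that from iNKT2 to iNKT17 was 1.77 (SE 0.24, adjusted p = 3.89e-05 in limma). In Hivep3-/- mice iNKT1 exceeded iNKT2 by 2.57 and iNKT17 by 3.02.

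*Stat5b*, which carries signals of IL-2, IL-7 and IL-15, was most open in iNKT17 cells. Upstream of the gene at −3.87 kb (chr11:100854345-100854844), between *Stat5b* and *Stat5a*, iNKT17 libraries gave 4.31 and 4.55 in C57BL/6 and 3.89 and 4.46 in Hivep3-/- mice. The iNKT1 libraries gave 0.92 and −0.41 in C57BL/6 and −0.24 and 0.64 in Hivep3-/-, and the iNKT2 libraries −0.17 and 0.17 in C57BL/6 and 0.06 and 0.84 in Hivep3-/-. Every iNKT17 library stood apart from the 8 others by nearly 3 units. Compared with iNKT17 cells the level in C57BL/6 mice fell by 4.17 in iNKT1 (SE 0.47, adjusted p = 6.16e-06 in limma) and fell by 4.43 in iNKT2 cells (SE 0.47, adjusted p = 5.67e-06 in limma).

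Inside *Stat5b* the intronic regions at 31.0 kb (chr11:100819502-100820001) and 4.65 kb (chr11:100845828-100846327) rose in steps from iNKT1 through iNKT2 to iNKT17. The region at 31.0 kb gave 3.80 and 3.77, then 5.03 and 5.03, then 6.70 and 6.71 in C57BL/6 mice, and 3.35 and 3.55, 5.38 and 5.16, and 6.66 and 6.32 in Hivep3-/- mice. Both were called between C57BL/6 iNKT1 and iNKT17 cells (−2.92, adjusted p = 2.68e-09, and −2.41, adjusted p = 1.6e-08, in limma). Another order appeared at 8.56 kb (chr11:100841918-100842417), which was highest in iNKT2 cells: 4.61 and 4.55 there, 2.79 and 3.13 in iNKT1 and 3.75 and 4.15 in iNKT17 cells of C57BL/6 mice. The difference between iNKT1 and iNKT2 was −1.62 (SE 0.19, adjusted p = 1.54e-05 in limma), which came to −1.45, under 3-fold, without replicate 1 of C57BL/6 iNKT1 cells. The most open *Stat5b* region, in the intron at 26.6 kb (chr11:100823913-100824412), ran from 5.91 to 6.79 and was not called between subsets. The internal promoter at 28.2 kb (chr11:100822313-100822812) ran from 5.35 to 6.03 and that at 28.7 kb (chr11:100821785-100822284) from 3.85 to 4.96.

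At the *Stat5b* promoter itself (0.39 kb, chr11:100850085-100850584) the replicates differed more than the groups. Replicate 1 and replicate 2 gave 4.26 and 4.81, 4.29 and 4.92, and 4.56 and 5.37 in C57BL/6 iNKT1, iNKT2 and iNKT17 cells. They gave 3.997 and 4.90, 3.59 and 4.77, and 4.20 and 5.33 in Hivep3-/- cells. Replicate 2 was thus the higher in 6 of 6 groups, by 0.55 to 1.18, and no comparison at this region was called. The region at −0.63 kb (chr11:100851104-100851603) was highest in iNKT1 cells, at 3.65 to 4.24 against 2.16 to 3.06 in all other libraries, and between the C57BL/6 subsets it stayed under the 3-fold threshold.

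*Stat5a*, the other STAT5 gene, had its most open region at its promoter (1.09 kb, chr11:100860188-100860687), where the 12 libraries ran from 7.22 to 7.66. Its other region, at 2.76 kb (chr11:100861864-100862363), whose sequence holds 2 bZIP matches, was highest in iNKT2 cells. It gave 4.47 and 4.70 in C57BL/6 and 4.80 and 4.63 in Hivep3-/- iNKT2 cells. It gave 2.35 and 2.52 in C57BL/6 and 3.16 and 3.41 in Hivep3-/- iNKT1 cells, and 2.65 and 3.35 in C57BL/6 and 3.42 and 3.80 in Hivep3-/- iNKT17 cells. All 4 iNKT2 libraries lay above all others. In C57BL/6 mice iNKT1 differed from iNKT2 by −2.15 (SE 0.24, adjusted p = 8.26e-06 in limma) and iNKT2 from iNKT17 by 1.59 (SE 0.24, adjusted p = 9.62e-05 in limma). The second difference was just past 3-fold and came to 1.47 without replicate 2 of C57BL/6 iNKT2 cells and to 1.24 without replicate 1 of C57BL/6 iNKT17 cells.

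*Stat3*, the transducer of IL-6, IL-21 and IL-23, was flat at its promoter and had its largest subset difference in an intron that was highest in iNKT2 cells of both genotypes. The promoter region (0.04 kb, chr11:100939248-100939747) had the highest mean of the 54 regions and ran from 7.65 to 8.06, and the neighbouring region at 0.67 kb (chr11:100938617-100939116) from 4.68 to 5.23. In the intron at 47.7 kb (chr11:100891626-100892125) iNKT2 libraries gave 5.41 and 5.54 in C57BL/6 and 5.24 and 5.45 in Hivep3-/- mice. In iNKT1 cells it gave 2.45 and 2.78 in C57BL/6 and 3.44 and 3.11 in Hivep3-/-, and in iNKT17 cells 2.65 and 1.54 in C57BL/6 and 1.82 and 1.35 in Hivep3-/-. The iNKT2 libraries again did not overlap with the rest. In C57BL/6 mice iNKT2 exceeded iNKT17 by 3.38 (SE 0.31, adjusted p = 1.41e-06 in limma), and iNKT1 differed from iNKT2 by −2.86 (SE 0.31, adjusted p = 6.4e-06 in limma).

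Internal *Stat3* starts had lower levels. At 41.4 kb (chr11:100897866-100898365) C57BL/6 cells gave 3.08 and 3.02 in iNKT1, 2.95 and 3.24 in iNKT2 and 0.82 and 1.48 in iNKT17, a difference of 1.90 between iNKT1 and iNKT17 (SE 0.35, adjusted p = 0.00045 in limma). It came to 1.57, under 3-fold, without replicate 1 of C57BL/6 iNKT17 cells. At 34.4 kb (chr11:100904860-100905359) the libraries ran from 0.91 to 3.31 and at 45.9 kb (chr11:100893366-100893865) from 3.46 to 4.41. With a pseudocount of 1 on the linear scale, 3 of the differences between C57BL/6 subsets given above came under 3-fold, *Stat5b* at 8.56 kb (−1.50), *Stat5a* at 2.76 kb between iNKT2 and iNKT17 (1.47) and *Stat3* at 41.4 kb (1.52), with adjusted p-values in limma of at most 0.000285.

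**Figure D3:**
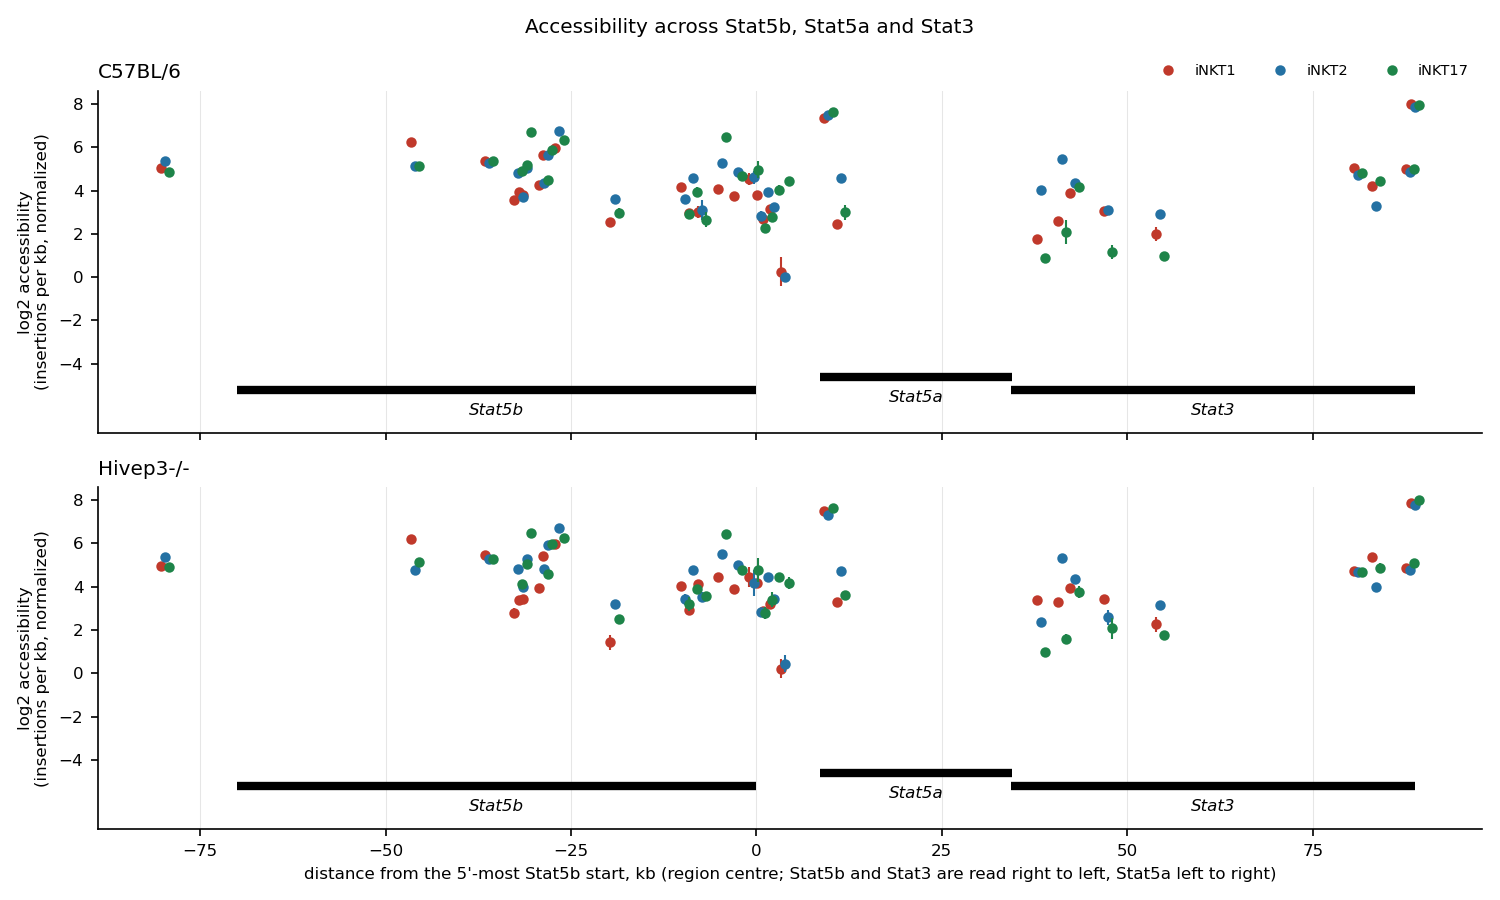
Log2 level (vertical axis) of the 31 regions at *Stat5b*, *Stat5a* and *Stat3* against the distance of each from the outermost *Stat5b* start in kb (horizontal axis, with black bars for the gene bodies), for the 3 subsets in C57BL/6 (upper panel) and Hivep3-/- mice (lower panel), where points are means of 2 libraries and vertical lines join the libraries. The iNKT17 point stands well above the others at the region between *Stat5b* and *Stat5a*, 3.87 kb upstream of *Stat5b*,, and the points of the 3 subsets nearly coincide at the *Stat5a* promoter (7.22 to 7.66) and the *Stat3* promoter (7.65 to 8.06).

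The comparison of genotypes asked what the loss of Hivep3 changed within each subset. Of the tested regions, 1 of 52 was called in iNKT1 cells (background 1.15%), 1 of 47 in iNKT2 cells (background 1.68%), none of 45 in iNKT17 cells (background 0.271%) and none of 54 on the average of the subsets (background 0.529%), so members were called about as often as other regions. At any size of change, the adjusted p in limma was under 0.1 for 8 of 52 in iNKT1 (background 9.42%), 6 of 47 in iNKT2 (background 16.4%), 4 of 45 in iNKT17 (background 4.65%) and 13 of 54 on the average (background 19.7%). Beside the counts of 0, the unadjusted p in limma was under 0.05 for 11 of 45 in iNKT17 cells (background 15.8%) and for 18 of 54 on the average (background 27.5%). The median change of the tested regions was −0.01 for iNKT1, 0.13 for iNKT2 and 0.08 for iNKT17.

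Both calls were the same region, the *Stat3* intron at 50.5 kb (chr11:100888806-100889305), near the 3′ end of the gene and also within the *Stat5a* window. In iNKT1 cells it gave 1.56 and 1.93 in C57BL/6 and 3.40 and 3.40 in Hivep3-/- mice. In iNKT2 cells it gave 3.84 and 4.20 in C57BL/6 and 2.56 and 2.15 in Hivep3-/- mice, and in iNKT17 cells 0.82 and 0.97 in C57BL/6 and 0.87 and 1.11 in Hivep3-/- mice. The region was thus higher in Hivep3-/- than in C57BL/6 iNKT1 cells, lower in Hivep3-/- than in C57BL/6 iNKT2 cells, and low in iNKT17 cells of both genotypes. The number of distinct values given above as a measure of depth moved in the same directions, up in Hivep3-/- iNKT1 and down in Hivep3-/- iNKT2 libraries, and its part in this result was not tested. The change in iNKT1 was 1.66 (SE 0.28, adjusted p = 0.0032 in limma) and that in iNKT2 was −1.66 (SE 0.28, adjusted p = 0.00247 in limma). On the average of the subsets it was 0.03 (adjusted p = 0.935 in limma).

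The difference between these changes, 3.32 between iNKT1 and iNKT2 (SE 0.39, adjusted p = 0.000992 in limma), was the single call among 53 regions tested for it (background 3.06%). The comparison of iNKT2 with iNKT17 gave −1.75 for the same region (SE 0.39, adjusted p = 0.0469 in limma), the single call of 49 (background 1.02%). The order of the subsets differed between genotypes. In C57BL/6 mice iNKT1 differed from iNKT2 by −2.27 (adjusted p = 1.86e-05 in limma), whereas in Hivep3-/- mice both iNKT1 libraries lay above both iNKT2 libraries. The calls within subsets were close to the 3-fold threshold. In iNKT1 cells the change came to 1.48 without replicate 1 of C57BL/6, to 1.41 with a pseudocount of 1 on the linear scale, to 0.90 with a pseudocount of 5 and to 1.57 after a second quantile normalization. In iNKT2 cells it came to −1.48 without replicate 2 of C57BL/6, to −1.46 without replicate 2 of Hivep3-/-, to −1.49 with a pseudocount of 1 and to −1.06 with a pseudocount of 5. In each of these the adjusted p stayed under 0.1. The difference between iNKT2 and iNKT17 was −1.55 with a pseudocount of 1 and −1.09 with 5, had an adjusted p of 0.118 when only their 4 groups were fitted, and lost its call without replicate 1 or 2 of C57BL/6 iNKT2, replicate 2 of Hivep3-/- iNKT2 or replicate 1 of C57BL/6 iNKT17 cells (−1.96 to −1.55 over the libraries left out, adjusted p up to 0.185, limma).

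The single call between iNKT1 and iNKT17 among 53 tested (background 1.42%) was the *Stat4* region at 48.4 kb, where the genotype change was −0.30 in iNKT1 (adjusted p = 0.727 in limma) and 1.35 in iNKT17 cells, a difference of −1.65 (SE 0.43, adjusted p = 0.076 in limma). The region entered this test through its iNKT1 level alone, since the iNKT17 levels were all under the 5 insertions per kb required for a test within that subset. The call was lost with a pseudocount of 1 (−0.91, adjusted p = 0.101) or 5 (−0.47, adjusted p = 0.131) and without any 1 of 6 of the 8 libraries, the exceptions being replicate 1 of C57BL/6 iNKT17 and replicate 2 of Hivep3-/- iNKT17 cells (−1.85 to −1.46, adjusted p up to 0.312, limma). With the replicate number as a block, the neighbouring *Stat4* region at 47.9 kb was called as well between iNKT1 and iNKT2 (1.60, adjusted p = 0.0632 with the block and 0.109 without it in limma), which made 2 calls. That region also entered through its iNKT1 level alone. Its iNKT2 levels, log2 −0.61 to 1.81, were under the 5 insertions per kb required within that subset.

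Changes under 3-fold were found at several other regions, chosen here after their values were seen. At the *Stat3* intron at 5.25 kb (chr11:100934045-100934544) C57BL/6 and Hivep3-/- cells gave 4.09 and 4.35 against 5.37 and 5.40 in iNKT1, 3.21 and 3.37 against 3.96 and 4.05 in iNKT2, and 4.45 and 4.42 against 4.67 and 5.08 in iNKT17. Hivep3-/- libraries were higher in all 3 subsets without overlap. Of all regions tested, 53.7% in iNKT1, 53.8% in iNKT2 and 44.7% in iNKT17 did not overlap between genotypes. The change was 1.17 in iNKT1 (SE 0.16, adjusted p = 0.001), 0.71 in iNKT2 (adjusted p = 0.0148), 0.44 in iNKT17 (adjusted p = 0.197) and 0.77 on the average (adjusted p = 0.000263, limma), and the differences between subsets had adjusted p-values of 0.151 to 0.658 in limma. At the *Stat6* exon at 12.4 kb the level in iNKT2 cells fell by 1.17 in Hivep3-/- mice (SE 0.24, adjusted p = 0.00753 in limma). At the *Stat4* internal promoter the change on the average was 0.22 (adjusted p = 0.0423 in limma), and at the *Stat6* start it was 0.25 (adjusted p = 0.012 in limma).

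**Figure D4:**
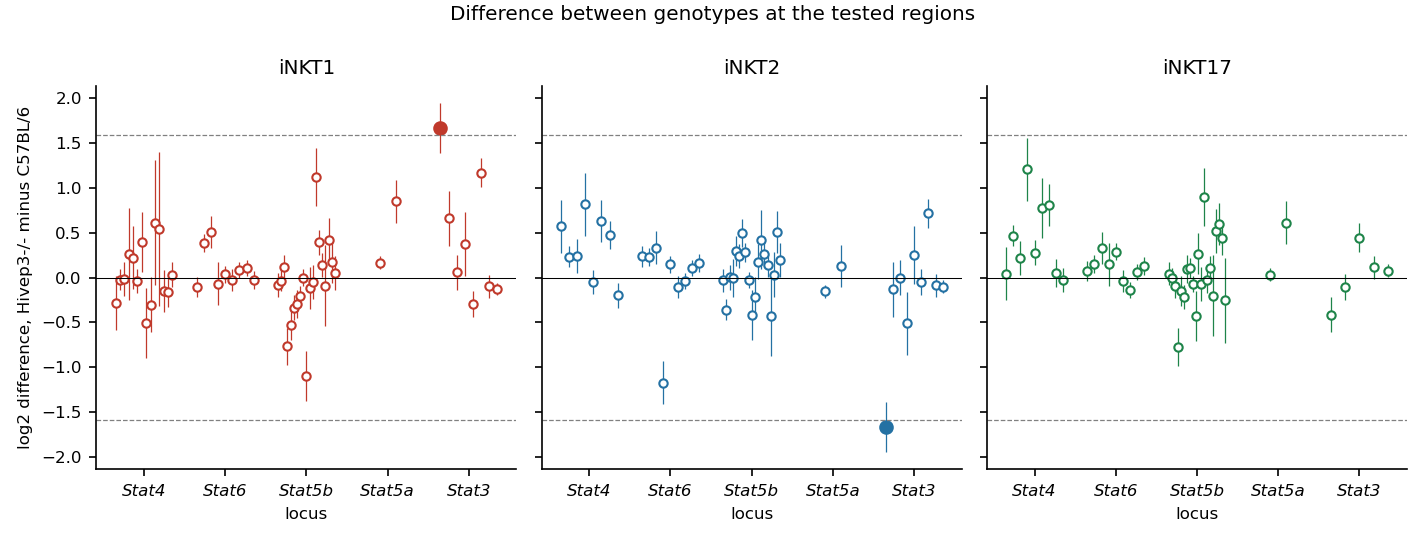
Log2 difference between Hivep3-/- and C57BL/6 (vertical axis) at each tested region, by gene (horizontal axis), in a panel for each subset, with bars for the standard error, dashed lines at the 3-fold threshold of 1.58 on either side of 0 and filled points where the difference was called. The 2 filled points are those of the *Stat3* intron at 50.5 kb, at 1.66 in the iNKT1 panel and −1.66 in the iNKT2 panel, and no point of the iNKT17 panel is filled.

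To compare whole loci, the linear levels of all regions in a gene's window were summed, and the log2 sums of 15359 protein-coding genes were fitted in the same way and called at an adjusted p under 0.1 with no threshold on size. The *Stat4* sum was 519.1 and 501.2 insertions per kb in C57BL/6 and 487.8 and 469.0 in Hivep3-/- iNKT1 cells. It was 192.8 and 167.3 in C57BL/6 and 202.3 and 192.8 in Hivep3-/- iNKT2 cells, and 200.1 and 189.6 in C57BL/6 and 241.6 and 228.9 in Hivep3-/- iNKT17 cells. The iNKT1 sums were well above all others, and in C57BL/6 mice iNKT2 and iNKT17 overlapped. The *Stat5b* sum was lowest in iNKT1 cells, 604.7 and 609.9 in iNKT1, 735.6 and 722.8 in iNKT2 and 873.0 and 868.7 in iNKT17 cells of C57BL/6 mice, with no overlap between subsets. In Hivep3-/- mice it was 629.8 and 610.4, 760.9 and 727.5, and 854.7 and 854.8 in the same order. The share of all genes whose sums did not overlap between subsets is not given.

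The *Stat5a* sum, which shares 9 regions with its neighbours, was 233.5 and 259.3 in iNKT1, 335.4 and 346.5 in iNKT2 and 302.4 and 321.7 in iNKT17 cells of C57BL/6 mice, and 283.9 and 288.7, 312.8 and 314.3, and 298.2 and 341.8 in Hivep3-/- mice. The *Stat6* sum was 536.6 to 602.6 over the C57BL/6 libraries and 552.2 to 660.8 over the Hivep3-/- libraries. It includes the open regions at *Nab2* and *Nemp1*, so it does not describe *Stat6* alone. The *Stat3* sum was 346.8 to 400.8 in C57BL/6 and 353.0 to 396.9 in Hivep3-/- mice, the most even on the log2 scale over both genotypes together. Within C57BL/6 mice the *Stat6* sum was more even, at log2 9.07 to 9.24 against 8.44 to 8.65 for *Stat3*. Sums are not divided by the number of regions and were compared between groups for each gene, not between genes.

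**Figure D5:**
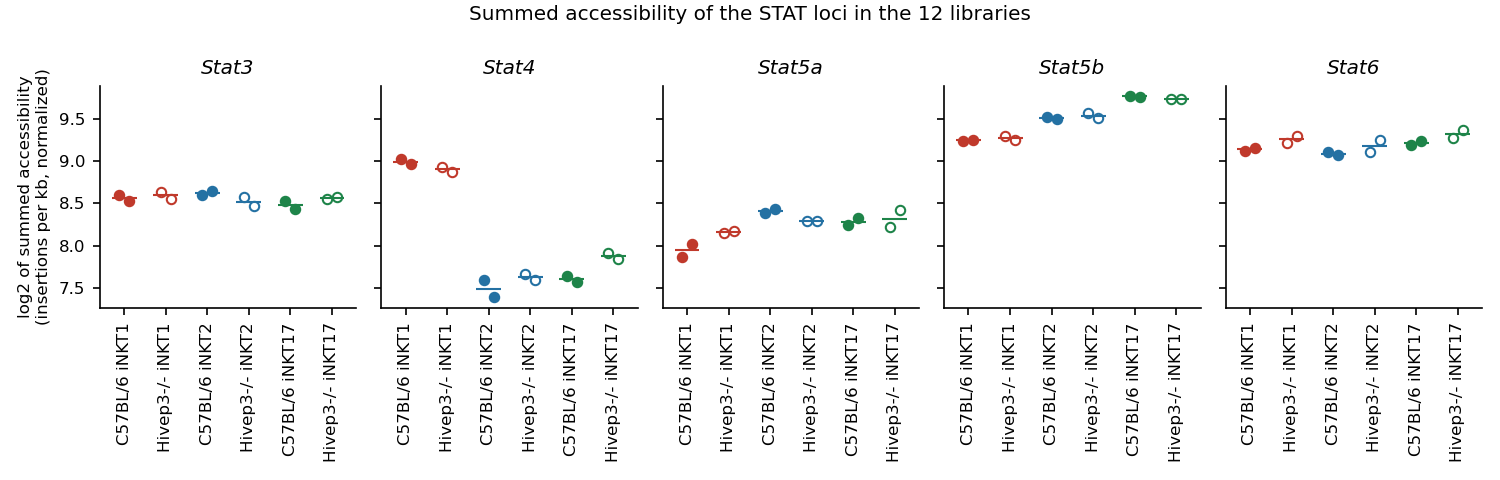
Log2 of the summed accessibility of each locus (vertical axis, summed insertions per kb) in the 6 groups (horizontal axis), in a panel for each gene, with a point for each library (filled for C57BL/6, open for Hivep3-/-) and a short line at the mean of 2. *Stat4* points of iNKT1 cells, which stand for sums of 469.0 to 519.1, lie above all others, of 167.3 to 241.6, and *Stat5b* points increase from iNKT1 through iNKT2 to iNKT17.

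Between C57BL/6 iNKT1 and iNKT2 cells 3 of the 5 sums were called (background 46.3%), *Stat4* at 1.51 (adjusted p = 1.39e-08), *Stat5a* at −0.47 (adjusted p = 0.000149) and *Stat5b* at −0.26 (adjusted p = 6.57e-05, limma). Between iNKT1 and iNKT17 cells the same 3 were called (background 49.1%), *Stat4* at 1.39 (adjusted p = 6.98e-09), *Stat5a* at −0.34 (adjusted p = 0.00136) and *Stat5b* at −0.52 (adjusted p = 1.15e-07, limma). Between iNKT2 and iNKT17 cells 3 were called (background 43.5%), *Stat5b* at −0.26 (adjusted p = 8.59e-05), *Stat3* at 0.14 (adjusted p = 0.0565) and *Stat6* at −0.13 (adjusted p = 0.0801, limma). The last call was lost without any 1 of the 4 libraries (−0.15 to −0.11, adjusted p up to 0.297), and that of *Stat3* without either C57BL/6 iNKT2 library or replicate 2 of C57BL/6 iNKT17 cells (adjusted p up to 0.325, limma). The *Stat3* difference had the other sign with flanks of 50 kb (−0.04, adjusted p = 0.411 in limma). With the replicate number as a block all 5 sums were called in each of the comparisons with iNKT17. The shares over all genes with the block are not given here, so counts with the block have no background.

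In Hivep3-/- mice 2 sums were called between iNKT1 and iNKT2 (background 49.5%, and 4 with the replicate block), 3 between iNKT1 and iNKT17 (background 47.4%) and 3 between iNKT2 and iNKT17 (background 45.5%). *Stat4* differed by 1.28 and 1.02 between iNKT1 and the other subsets, and was lower in iNKT2 than in iNKT17 cells (−0.25, adjusted p = 0.0106 in limma), a call that was lost with flanks of 50 kb (−0.10, adjusted p = 0.283 in limma).

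Between genotypes, none of the 5 sums was called in iNKT1 (background 7.77%) or iNKT2 cells (background 13.8%), with adjusted p-values in limma from 0.101 upward in iNKT1. In iNKT17 cells 1 was called (background 4.53%), *Stat4*, which was 0.27 higher in Hivep3-/- mice (SE 0.07, adjusted p = 0.059 in limma). The call was lost without any 1 of the 4 iNKT17 libraries (0.23 to 0.31, adjusted p up to 0.26), with flanks of 50 kb (0.16, adjusted p = 0.268) and without a variance trend (adjusted p = 0.136, limma). On the average of the subsets 1 was called (background 16.8%), *Stat6*, at 0.11 (adjusted p = 0.038 in limma), and it was lost without replicate 2 of Hivep3-/- iNKT1, replicate 1 of C57BL/6 iNKT17 or replicate 2 of Hivep3-/- iNKT17 cells (adjusted p up to 0.11, limma) and with the pool as a random block (adjusted p = 0.123, limma). With the replicate number as a block the counts between genotypes were 2 in iNKT1, 4 in iNKT2, 2 in iNKT17 and 2 on the average. The background shares above are of the fit without the block and cannot be set against these counts.

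The genotype change differed between iNKT1 and iNKT2 for 1 of 5 sums (background 8.86%), *Stat5a*, by 0.34 (adjusted p = 0.0646 in limma), between iNKT1 and iNKT17 for 1 of 5 (background 3.13%), *Stat4*, by −0.36 (adjusted p = 0.086 in limma), and between iNKT2 and iNKT17 for none (background 2.65%). The *Stat5a* call was lost without any 1 of 7 of the 8 libraries, the exception being replicate 2 of C57BL/6 iNKT1 cells (0.26 to 0.41, adjusted p up to 0.24), and the *Stat4* call without any 1 of the 8 (−0.40 to −0.33, adjusted p up to 0.317, limma). With the gene body only, which leaves out the *Stat3* region at 50.5 kb, the *Stat5a* difference was 0.31 and was not called (adjusted p = 0.114 in limma). With the replicate block the counts of sums whose genotype change differed were 2, 2 and 1, with no background given for that fit.

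Over the 12 libraries, the protein-coding genes whose sums ran most like *Stat4* were *Pik3r5* (Pearson's r 0.995), *Ptpre* (0.992) and *Cubn* (0.988), and those most like *Stat5b* were *Gpatch8* (0.993), *Cnot6* (0.991) and *App* (0.991). For *Stat5a* they included *Fam131c* (0.948) and *Kcnn1* (0.947), for *Stat6* they were *Prr7* (0.945), *Ppm1n* (0.939) and *Nfkbid* (0.937), and for *Stat3* *Scamp2* (0.816), *S100a3* (0.806) and *Cenpn* (0.767). These were the highest of at least 5648 genes each, over libraries that share subsets, and are descriptions. The locus with the largest subset differences thus had the closest likenesses, and *Stat3* the weakest.

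The rest of the pathway was followed at 37 genes, among them 4 Janus kinases, 14 inhibitors and 17 cytokine receptor chains, all of which had regions. Between C57BL/6 iNKT1 and iNKT2 cells the locus sum was higher in iNKT1 for 16 and higher in iNKT2 for 5 of the 37, between iNKT1 and iNKT17 the counts were 13 and 12, and between iNKT2 and iNKT17 they were 7 and 14. Over all genes 46.3%, 49.1% and 43.5% were called in these comparisons, both directions together, and shares by direction are not given here. Of the 14 inhibitors 6 were higher in iNKT1 than in iNKT2 and none lower, against 46.3% of all genes called in either direction. Of the 17 receptor chains 9 were higher and 4 lower. The largest called region differences in C57BL/6 mice were at receptor genes: *Ifngr1*, a chain of the interferon-gamma receptor, between iNKT1 and iNKT2 (chr10:19611522-19612021, 6.00, adjusted p = 7.9e-06 in limma), and *Il23r*, of the IL-23 receptor, between iNKT2 and iNKT17 (chr6:67491626-67492125, −8.72, adjusted p = 1.02e-06 in limma). Between iNKT1 and iNKT17 it was *Il12rb2*, of the IL-12 receptor that activates STAT4 (chr6:67367091-67367590), which was at the lowest value of both C57BL/6 iNKT17 libraries, so no fold is given. The *Il23r* sum over all its regions was log2 8.17 and 8.16 in C57BL/6 iNKT17 libraries, under the size of the −8.72 difference at a single region. The iNKT2 level of that region was therefore low, and the size of the difference depends on it.

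Between genotypes the sums of 3 of the 37 genes were higher and 2 lower in Hivep3-/- iNKT1 cells, 7 higher and 1 lower in iNKT2, 7 higher and none lower in iNKT17, and 9 higher and 2 lower on the average. Over all genes 7.77%, 13.8%, 4.53% and 16.8% were called in these comparisons, both directions together, so the split into higher and lower has no background here. Among their regions, 2 of 296 tested were called in iNKT1 cells (background 1.15%), 5 of 288 in iNKT2 (background 1.68%), none of 294 in iNKT17 (background 0.271%) and 1 on the average (background 0.529%). A region of *Jak2*, a kinase of the IL-12 and interferon-gamma receptors (chr19:29271127-29271626), was called up in iNKT1 (2.96, adjusted p = 0.0052) and down in iNKT2 cells (−1.93, adjusted p = 0.0347, limma), a difference of 4.89 (adjusted p = 0.00308 in limma). *Cish*, an inhibitor of STAT5 signalling, had a region called up in iNKT1 (1.60) and one called down in iNKT2, *Il6ra* had one called up in iNKT2, *Jak1* one called up in iNKT2 (2.06), *Il12rb2* one called down in iNKT2 (−1.98) and *Ifngr2* one called up on the average (1.89, adjusted p = 0.0307 in limma).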

How the data were processed

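Omni ATAC-seq was performed on 12 libraries, 2 for each of 3 thymic iNKT subsets in C57BL/6 and Hivep3-/- mice. The authors trimmed reads to 50 bp with Trimmomatic 0.39, processed them against mm10 with the ENCODE ATAC-seq pipeline and merged peaks into 500-bp regions with chromVAR. The deposited table holds, for 63309 regions, log2 insertions per kb that the authors transformed with voom and normalized between libraries. These are not counts, so a count model was not used and depth could not be recovered. The table held 0 columns of other samples and no comparisons of the authors.

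Regions were assigned to genes with GENCODE vM21. The 6 group means were fitted over all 12 libraries with limma 3.58.1 (moderated variances with a trend, 6 residual and 7.17 prior degrees of freedom) in R 4.3.3, with p-values adjusted by Benjamini-Hochberg over all regions, or all 15359 locus sums, of a comparison. Changes are Hivep3-/- minus C57BL/6, or the subset named first minus the second. The script was tested on simulated data. Named were, for each gene, the regions at its starts, every member called between genotypes or in a difference of genotype changes, the called members with the largest rise and fall between C57BL/6 subsets and the member with the highest mean. The members, pathway and marker lists were chosen with earlier results of these data known. Some genes that these rules name are not reported here. Alternatives were the filter, fold threshold, pseudocount, normalization, window, variance model, samples fitted, pairing and single libraries left out.

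The titles number mice 1 and 2 in each genotype, and thymi were pooled. The subsets were put together for the transposition, so libraries of different subsets shared a reaction. Whether the same-numbered libraries of a genotype were those that shared one is not stated beyond the titles. Deviations of same-numbered libraries from their group means correlated across regions at 0.12 to 0.17 between subsets of a genotype, at 0.11 to 0.17 between genotypes within a subset and at 0.09 to 0.17 otherwise. These ranges overlapped. All of the correlations were positive, so same-numbered libraries tended to deviate together both within and between genotypes. The main fit left the number out, and it entered as a block in alternative fits only. The fit with the number as a block is given where it changed a call or moved a count by over 1.5 times. Library sums, sequences (GRCm38.p6) and motif matches were computed with Python 3.11.15.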

Additional observations from a re-analysis of the deposited data

Results flagged for a closer look

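The change between genotypes differed between subsets, by a test of the difference itself (limma), at 2 regions and 2 locus sums. At the *Stat3* intron at 50.5 kb the change in iNKT1 cells exceeded that in iNKT2 cells by 3.32 on the log2 scale (adjusted p = 0.000992 in limma), and the change in iNKT2 cells was below that in iNKT17 cells by −1.75 (adjusted p = 0.0469 in limma). The second of these had an adjusted p of 0.118 in limma when only the groups compared were fitted, and its call depended on single libraries, as given above. The genotypes did not overlap there in iNKT1 or iNKT2 cells, but the calls from the same libraries nearly fix this in advance. Of all regions tested, 53.7% in iNKT1 and 53.8% in iNKT2 did not overlap between genotypes. At the *Stat4* intron at 48.4 kb the change in iNKT1 minus that in iNKT17 cells was −1.65 (adjusted p = 0.076 in limma), where both Hivep3-/- iNKT1 libraries were lower and both Hivep3-/- iNKT17 libraries higher than those of C57BL/6. All 4 iNKT17 levels there were under the 5 insertions per kb required for a test within that subset, and with a pseudocount of 1 the difference was −0.91 (adjusted p = 0.101 in limma). The genotype change of the *Stat5a* locus sum differed between iNKT1 and iNKT2 cells by 0.34 (adjusted p = 0.0646 in limma) and that of the *Stat4* locus sum between iNKT1 and iNKT17 cells by −0.36 (adjusted p = 0.086 in limma). Without a variance trend neither sum was called (adjusted p = 0.139 and 0.174 in limma), and both calls depended on single libraries, as given above. The *Stat5a* window holds the *Stat3* region at 50.5 kb and the *Stat4* window the region at 48.4 kb, so the sums and regions are not independent results. With the gene body only, which leaves out the *Stat3* region, the *Stat5a* difference was 0.31 and was not called (adjusted p = 0.114 in limma). The causes were not tested.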

How the results depend on the processing

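Read depth is unknown, so how far low levels are limited by it could not be computed, and 2 libraries a group limit every test. The causes of the changes below were not tested, except that a pseudocount shrinks differences of low levels and a lower fold threshold admits more regions by construction. Shares over all regions or genes under these alternatives are not given, so the counts below have no background.

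Regions called, by alternative. With a 2-fold threshold the counts between genotypes were 4 for iNKT1, 2 for iNKT2 and 1 for iNKT17, between C57BL/6 subsets 23 (iNKT1 against iNKT2), 19 (iNKT1 against iNKT17) and 14 (iNKT2 against iNKT17), between Hivep3-/- subsets 24, 21 and 12 in the same order, and 2 for each difference between genotype changes. With pseudocounts of 1 and 5 they were 0 in iNKT1 and 0 in iNKT2 between genotypes and 0 for both differences with iNKT17. A pseudocount of 5 also gave 6 and 3 between C57BL/6 iNKT2 and the iNKT1 and iNKT17 subsets and 7 between Hivep3-/- iNKT1 and iNKT2. A second quantile normalization left 0 in iNKT1 between genotypes. With no filter there were 2 between genotypes in iNKT2 and 4 in the difference of iNKT2 and iNKT17, and with a filter on the mean of all libraries 2 and 3. With only the compared groups fitted, the difference of iNKT1 and iNKT2 had 2 and that of iNKT2 and iNKT17 had 0.

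Leaving out 1 library at a time gave 0 to 1 regions between genotypes in iNKT1, 0 to 1 in iNKT2, 0 in iNKT17 and 0 on the average, 11 to 14, 11 to 13 and 8 to 10 between C57BL/6 subsets, 12 to 15, 10 to 12 and 3 to 4 between Hivep3-/- subsets, and 1, 0 to 2 and 0 to 2 for the differences. A lone library was assumed to vary like the other groups.

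Locus sums called, by alternative. Without a variance trend the counts were 0 in iNKT17 and 0 on the average between genotypes, 1 between C57BL/6 iNKT2 and iNKT17, and 0 and 0 for the differences of iNKT1 with iNKT2 and with iNKT17. With the gene body only they were 1 in iNKT2 and 2 on the average. With flanks of 50 kb they were 3 in iNKT1 and 0 in iNKT17 between genotypes, 5 between C57BL/6 iNKT1 and iNKT17, 4 and 5 between Hivep3-/- iNKT1 and the iNKT2 and iNKT17 subsets and 0 and 0 for the differences with iNKT1, and the *Stat3* difference between C57BL/6 iNKT2 and iNKT17 turned from 0.14 to −0.036. Pseudocounts of 1 and 5 gave 1 in iNKT1, and a second quantile normalization 2 on the average. Leaving out 1 library gave 0 to 1 in iNKT1, 0 to 1 in iNKT2, 0 in iNKT17 and 0 to 2 on the average, 3, 3 and 1 to 2 between C57BL/6 subsets, 2 to 3 in each comparison of Hivep3-/- subsets, and 0 to 1, 0 and 0 for the differences.

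With the replicate number as a block, or as a random block by pool (within-pool correlation 0.181), or as a term for each genotype (chosen after seeing the data), 2 regions in place of 1 were called for the difference of iNKT1 and iNKT2. The added region was *Stat4* at 47.9 kb, whose iNKT2 levels were under 5 insertions per kb. For locus sums the replicate block gave 2 in iNKT1, 4 in iNKT2, 2 in iNKT17 and 2 on the average between genotypes, 5 and 5 between C57BL/6 iNKT17 and the other subsets, 4 between Hivep3-/- iNKT1 and iNKT2, and 2, 2 and 1 for the differences. The block by pool gave 1 in iNKT1, 0 on the average, 5 between C57BL/6 iNKT2 and iNKT17, 4 between Hivep3-/- iNKT1 and iNKT2 and 2 for the difference of iNKT1 and iNKT2. The blocks changed no other count by over 1.5 times.

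Of the alternatives of single regions and sums, 461 planned and 16 added later kept their call and direction, 89 lost the call in the same direction and 1 turned.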

Other observations

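Replicate 2 exceeded replicate 1 in 6 of 6 groups at 3 regions besides the *Stat5b* promoter, the *Stat5b* region at −0.63 kb, the *Stat4* intron at 27.4 kb and the *Stat6* region at 0.71 kb, and it was below replicate 1 in 6 of 6 groups at the *Stat5b* regions at 32.2 and 28.2 kb and the *Stat3* intron at 7.76 kb. These regions were chosen after their values were seen.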
